A study of Mus musculus with 2 samples.

Results

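Bdnf, Ntrk2 and Ntrk3, a neurotrophin and the genes of the receptors TrkB and TrkC, were followed at gene and transcript level in long-read RNA sequencing of the mouse left cerebral cortex. Members were the models that both transcript tables give to an annotated gene of these names, 3 of 18534 annotated genes with a read. They held 49 transcript models in replicate 1 and 51 in replicate 2. The study has 1 group, so no condition was compared: 2 libraries, labelled as biological replicates 1 and 2, came from B6CASTF1/J mice aged 18 to 20 months, each from 2 µg of RNA. B6CASTF1/J is an F1 cross of a C57BL/6 and a CAST/EiJ parent, and reads were not split by parental allele. Both libraries name the same donor entry, and their labels give the sex as female in one field and male in another. A comparison of the libraries therefore measures the spread between them as sequenced, with counting error only, and it may be technical.

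Neurotrophins are secreted growth factors that are cut from a longer precursor and bind Trk receptors on neurons and glia. BDNF and NT-4 bind TrkB, and NT-3 binds TrkC. A full-length Trk receptor carries an intracellular tyrosine kinase, whereas truncated forms share the outer part and the membrane span but end in a short tail with no kinase. In the brain, truncated TrkB is known as the main TrkB form of astrocytes. Bdnf itself has many promoters, each with its own first exon, which all splice to the same coding exon.

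The gene models fix where the receptors part. Ntrk2 lies at chr13:58806569-59133970 on the plus strand, and Ntrk3 at chr7:78175959-78738012 on the minus strand (mm10, which is GRCm38). In Ntrk2 the last exon shared by both receptor forms is chr13:58878163-58878262. The truncated transcript Ntrk2-202 splices from it to a tail exon that starts at 58932023, and the kinase-bearing transcript Ntrk2-201 splices to the first of 6 kinase-bearing exons, at 58985802. In Ntrk3 the last shared exon is chr7:78356027-78356215. The truncated transcript Ntrk3-202 goes on with an exon of 135 nt and the terminal exon chr7:78300690-78302747, while kinase-bearing transcripts splice to an exon of 131 nt that ends at 78260414. The junctions below show what the reads had to tell apart. The bases in lower case are the last 30 of the shared exon. The capitals are the bases that follow: to the stop codon in the truncated forms, and the first 60 in the kinase-bearing forms. All come from the GENCODE M21 transcripts, are written 5′ to 3′ on the gene's strand, and 41 of 41 annotated transcripts of the 3 genes had the same exons there as in the deposited annotation.
Ntrk2 truncated: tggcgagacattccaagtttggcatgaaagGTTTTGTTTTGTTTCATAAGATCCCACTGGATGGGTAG
Ntrk2 kinase-bearing: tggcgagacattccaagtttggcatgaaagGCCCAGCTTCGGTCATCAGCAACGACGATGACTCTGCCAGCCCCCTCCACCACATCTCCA
Ntrk3 truncated: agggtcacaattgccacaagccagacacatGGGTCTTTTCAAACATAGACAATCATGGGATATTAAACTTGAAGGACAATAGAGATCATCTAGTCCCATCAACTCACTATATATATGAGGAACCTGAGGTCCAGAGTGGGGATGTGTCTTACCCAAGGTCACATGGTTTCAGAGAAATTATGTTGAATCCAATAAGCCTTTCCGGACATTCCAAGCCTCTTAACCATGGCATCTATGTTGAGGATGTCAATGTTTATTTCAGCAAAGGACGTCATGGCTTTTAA
Ntrk3 kinase-bearing: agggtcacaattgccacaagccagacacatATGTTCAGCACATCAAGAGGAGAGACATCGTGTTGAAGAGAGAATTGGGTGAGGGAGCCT
The truncated coding tails are of unequal size: 38 bases complete the Ntrk2 tail with its stop codon, and 254 complete the Ntrk3 tail, over 2 exons.

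The libraries comprised 871524 long reads in replicate 1 and 839150 in replicate 2. Annotated genes took 774629 and 679147 of these, the totals to which CPM, the scaled read count of a gene, is relative. A gene with no read could have up to 3.87 CPM in replicate 1 and 4.42 CPM in replicate 2, the limit of 3 counts. Unannotated antisense loci took 8.87% of the mouse reads in replicate 1 and 16.9% in replicate 2. Of 9143 genes with at least 20 reads in total, 182 differed between the libraries (1.99%; exact binomial test, Benjamini-Hochberg adjusted p under 0.05), 67 higher and 115 lower in replicate 1. At an unadjusted p under 0.05 there were 1075 (11.8%). With TMM scaling from edgeR the split was 91 higher and 97 lower, and with DESeq2 size factors 153 higher and 90 lower. Markers of cortex were present: Slc17a7, the vesicular glutamate transporter of cortical excitatory neurons, had 1142 CPM in replicate 1 and 973 CPM in replicate 2, and Camk2a, a kinase of excitatory neurons, 174 and 244 CPM.

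Ntrk2 was the most abundant member. It had 188 reads (242.7 CPM) in replicate 1 and 174 reads (256 CPM) in replicate 2. Since each long read counts once whatever the transcript's length, these levels compare molecules sequenced, although long transcripts can be under-sampled. On that scale Ntrk2 averaged 249 ± 9.55 CPM (SD, n = 2), above 96.0% of all genes with a read and above 97.6% of the 2798 genes whose mean model length lay within 20% of its own. Its libraries differed by less than counting error allows to tell: the ratio of replicate 1 over replicate 2 was 0.947, with a 95% interval of 0.767 to 1.17 (exact binomial test, adjusted p = 0.953).

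Ntrk3 had 31 reads (40.0 CPM) in replicate 1 and 34 reads (50.1 CPM) in replicate 2, a mean of 45.0 ± 7.10 CPM (SD, n = 2). Bdnf had 29 reads (37.4 CPM) in replicate 1 and 28 reads (41.2 CPM) in replicate 2, a mean of 39.3 ± 2.68 CPM (SD, n = 2). Neither gene passed the test between libraries, with adjusted p of 0.848 for Ntrk3 and 0.997 for Bdnf, and the intervals of their ratios were wide, 0.475 to 1.34 for Ntrk3 and 0.521 to 1.58 for Bdnf. Over all models, the order of the 3 levels was the same in both libraries. With annotated transcripts only, Ntrk3 lay below Bdnf, at 5 reads in replicate 1 and 6 in replicate 2, against 25 and 23 for Bdnf. Ntrk2 had 6.06 times the reads of Ntrk3 in replicate 1 (95% interval 4.13 to 9.18) and 5.12 times in replicate 2 (3.53 to 7.63). It had 6.48 and 6.21 times the reads of Bdnf in replicates 1 and 2. Ntrk3 and Bdnf, neighbours in that order, did not differ beyond counting error: their ratio was 1.07 (0.623 to 1.84) in replicate 1 and 1.21 (0.715 to 2.08) in replicate 2. Among genes of like length, 70.0% lay below Ntrk3 and 67.4% below Bdnf.

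**Figure D1:**
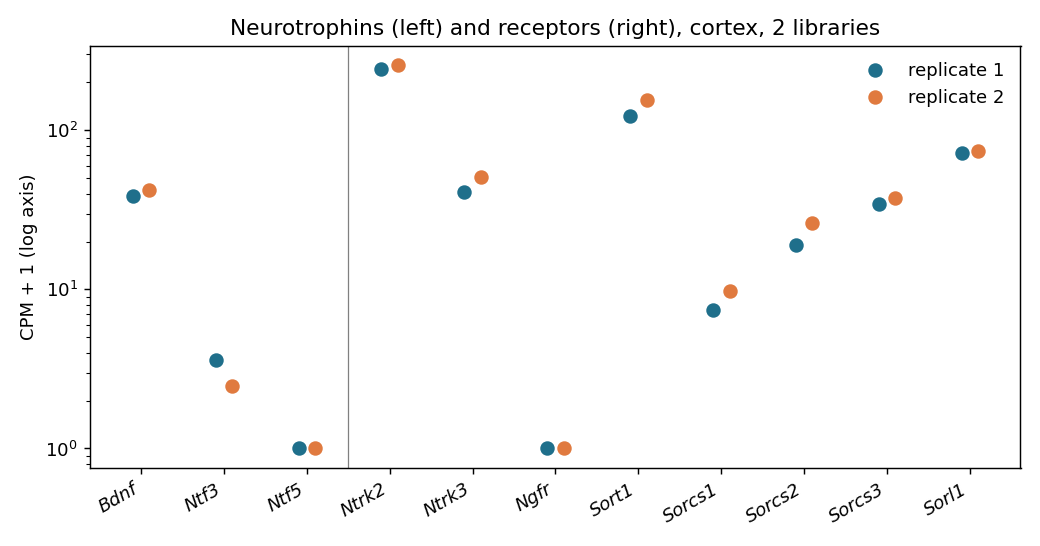
CPM + 1 on a log axis for 3 neurotrophin genes (left of the line) and 8 receptor genes (right), 1 point per library. Ntrk2 stands highest of the 11 genes in both libraries, and Ntf5 and Ngfr lie at 1, which is 0 reads.

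Ntf3 and Ntf5 were under the detection limit. Ntf3, which encodes the TrkC ligand NT-3, had 2 reads in replicate 1 and 1 in replicate 2, and Ntf5, which encodes NT-4, had none in either library. Among the receptors, Ngfr, the gene of the p75 receptor shared by all neurotrophins, also had no read. Those 0 counts leave room for levels of up to 3.87 CPM in replicate 1 and 4.42 CPM in replicate 2. The sortilin family of sorting receptors, which handle proneurotrophins, was measured more deeply. Sort1 had 121 CPM in replicate 1 and 155 CPM in replicate 2, Sorl1 71.0 and 73.6 CPM, and Sorcs3 33.6 and 36.8 CPM. Sorcs2 had 18.1 and 25.0 CPM, and Sorcs1 6.45 and 8.83 CPM. Of the 6 receptor genes tested, 0 passed the test between libraries, at either an adjusted or an unadjusted p under 0.05. Over all genes tested 1.99% and 11.8% did, so 6 genes are too few to set the receptors apart.

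Truncated ends made up most of the Ntrk2 reads. A read counted as kinase-bearing when its model overlaps a kinase exon, as truncated when the last exon of its model overlaps an annotated truncated terminal exon by at least 1 base, and otherwise as unresolved. In replicate 1, 163 Ntrk2 reads were truncated, 22 kinase-bearing and 3 unresolved. In replicate 2, 145 were truncated, 26 kinase-bearing and 3 unresolved. The truncated share of resolved reads was 88.1% (95% Wilson interval 82.7 to 92.0%) in replicate 1 and 84.8% (78.7 to 89.4%) in replicate 2, a mean of 86.5 ± 2.34% (SD, n = 2). The libraries did not differ beyond counting error (Fisher's exact test, two-sided, p = 0.438). As levels, truncated Ntrk2 averaged 212 ± 2.18 CPM and kinase-bearing Ntrk2 33.3 ± 6.99 CPM (SD, n = 2 each), so that kinase-bearing Ntrk2 was close to the gene level of Bdnf.

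Ntrk3 had the same order of ends, with fewer reads. Replicate 1 held 25 truncated, 5 kinase-bearing and 1 unresolved read, a truncated share of 83.3% (66.4 to 92.7%). Replicate 2 held 21 truncated, 11 kinase-bearing and 2 unresolved reads, a share of 65.6% (48.3 to 79.6%). The mean was 74.5 ± 12.5% (SD, n = 2), and the difference between the libraries did not pass Fisher's exact test (two-sided, p = 0.150). Truncated Ntrk3 averaged 31.6 ± 0.956 CPM and kinase-bearing Ntrk3 11.3 ± 6.89 CPM (SD, n = 2 each).

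**Figure D2:**
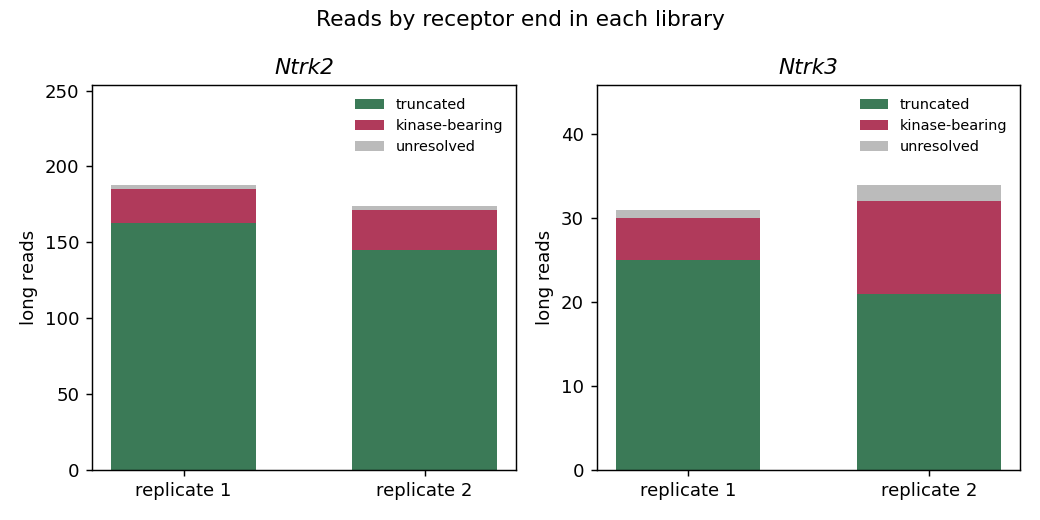
Long reads of Ntrk2 (left) and Ntrk3 (right) in each library, stacked by truncated, kinase-bearing and unresolved ends. The truncated part is the tallest in all 4 bars, with 163 and 145 reads for Ntrk2 and 25 and 21 for Ntrk3.

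The lower Ntrk3 share of replicate 2 came with single-exon reads. Of its 11 kinase-bearing reads, 7 were single-exon models, 6 of them 1 model at chr7:78185016-78189501, inside the long terminal exon of Ntrk3-201. In replicate 1, 1 of 5 kinase-bearing Ntrk3 reads was single-exon. Ntrk2 likewise had 9 single-exon reads among 26 kinase-bearing ones in replicate 2, and 1 among 22 in replicate 1. Single-exon models hold no splice junction to place them in a transcript. Among multi-exon models alone, the truncated share of Ntrk3 was 82.6% (19 of 23 reads) in replicate 1 and 83.3% (20 of 24) in replicate 2, and the libraries did not differ (Fisher's exact test, p = 1). Ntrk2 changed little by the same restriction, with 84.7% (116 of 137) in replicate 1 and 86.5% (109 of 126) in replicate 2.

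Set against each other, the receptors gave no difference that held in both libraries. The truncated share of Ntrk2 exceeded that of Ntrk3 by 4.77 percentage points in replicate 1 (95% interval -6.03 to 22.1; Fisher's exact test, two-sided, p = 0.550) and by 19.2 points in replicate 2 (3.91 to 37.1; p = 0.0217). With p adjusted over the 4 tests of truncated shares, the value of replicate 2 was 0.0869. Among multi-exon models the difference was 2.06 points in replicate 1 (p = 0.761) and 3.17 points in replicate 2 (p = 0.748, both by Fisher's exact test). The intervals of these differences ran from -10.5 to 22.5 points in replicate 1 and from -9.05 to 23.0 points in replicate 2, so the depth does not show that the receptors are alike. Without incomplete splice matches and genomic models the larger gap was in replicate 1, at 31.6 points (7.05 to 63.6; Fisher's exact p = 0.0166, adjusted 0.0663), and replicate 2 had 6.02 points (p = 0.446), from 8 Ntrk3 reads in each library.

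A narrower count took only reads that splice out of the last shared exon, the junctions printed above. For Ntrk2, 114 such reads in replicate 1 went to the truncated tail and 14 to the kinase exon, a truncated share of 89.1% (82.5 to 93.4%). In replicate 2, 106 went to the tail and 9 to the kinase exon, a share of 92.2% (85.8 to 95.8%). For Ntrk3, 17 reads took the truncated junction and 3 the kinase junction in replicate 1, and 19 and 3 in replicate 2, shares of 85.0% and 86.4%. For Ntrk2 it kept 14 of 21 and 9 of 17 multi-exon kinase-bearing reads in replicates 1 and 2, against 114 of 116 and 106 of 109 truncated ones. The kinase-bearing reads left out were on models that start 3′ of the last shared exon, so the restriction itself raises the truncated share. This count of spliced reads was added after the data were seen. Under it the receptors differed by 4.06 points in replicate 1 and 5.81 points in replicate 2, with Fisher's exact p of 0.704 and 0.409.

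**Figure D3:**
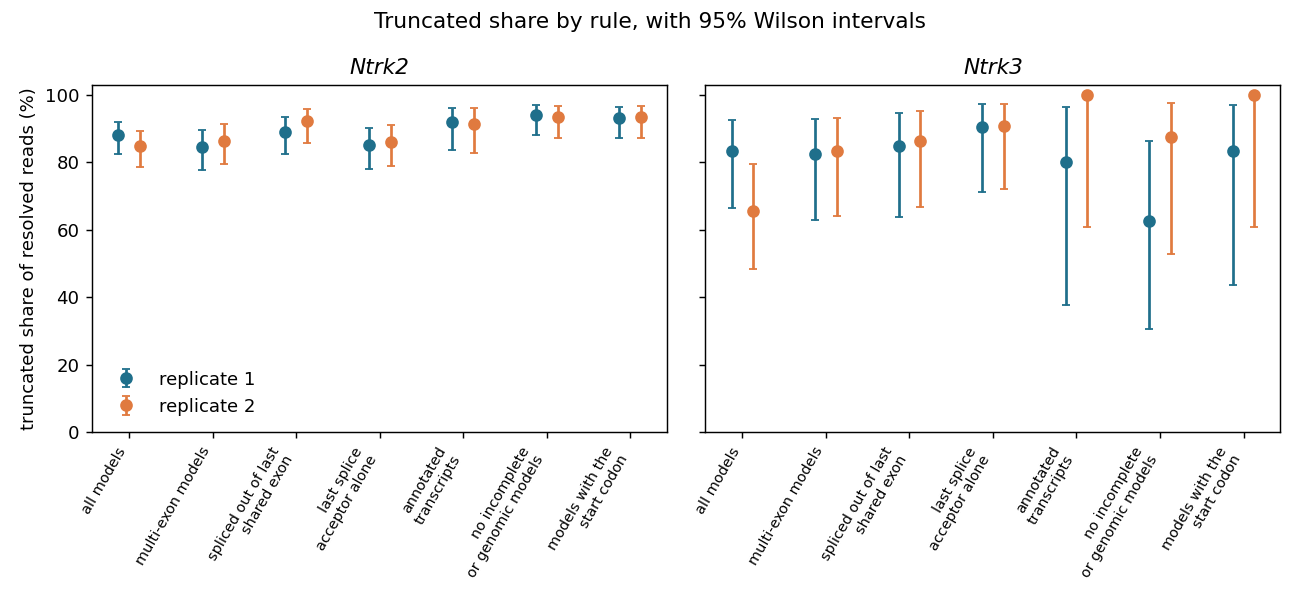
Truncated share of resolved reads in percent for Ntrk2 (left) and Ntrk3 (right) under 7 ways of choosing the reads, 1 point per library with its 95% Wilson interval. Ntrk2 stays between 84.7% and 94.1%, while Ntrk3 runs from 62.5% to 100% with wide intervals.

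Both receptor genes used more than 1 last splice site. Across all genes, multi-exon reads were sorted by the acceptor of their last intron, in 5335 genes with at least 20 such reads in each library. The most used acceptor of Ntrk2, that of the truncated tail, held 114 of 138 reads (82.6%) in replicate 1 and 106 of 127 (83.5%) in replicate 2. That of Ntrk3, also the truncated one, held 19 of 23 (82.6%) and 20 of 24 (83.3%). The median gene had 98.7% of its reads on its main acceptor, and 8.28% of genes had a lower share than Ntrk2 and 8.25% a lower share than Ntrk3. Bdnf had a single acceptor in all 26 and 24 multi-exon reads, at chr2:109723382, the start of the shared coding exon. Between libraries 1 gene passed (0.0187%; Fisher's exact test, Benjamini-Hochberg adjusted), 97 had an unadjusted p under 0.05, and the 3 members had an adjusted p of 1.

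Ntrk2 had fewer reads on its kinase exons than on its shared exons. Each shared exon from the second to the last held 121 to 130 reads in replicate 1 and 109 to 118 in replicate 2. The truncated tail held 158 and 139 reads. The first kinase exon held 18 reads in replicate 1 and 16 in replicate 2, and the following kinase exons 17 to 20 and 16 to 17 until the last, with 21 and 26. No read skipped an annotated internal exon of Ntrk2, including the 36 nt exon chr13:58871736-58871771, which was included in 126 reads of replicate 1 and 115 of replicate 2. Ntrk3 had fewer reads toward its start: its first shared exon held 6 reads in each library, against 20 and 22 on the last shared exon.

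**Figure D4:**
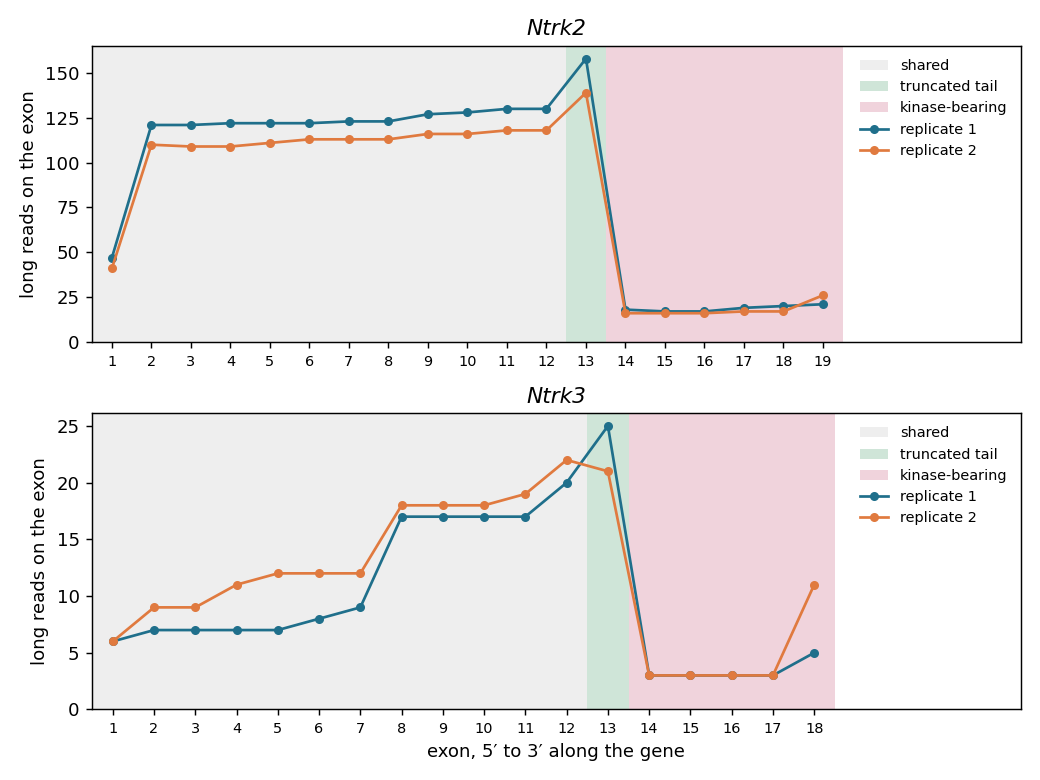
Long reads that overlap each exon, in order 5′ to 3′, for Ntrk2 (top) and Ntrk3 (bottom, without its 135 nt truncated exon), 1 line per library with shared, truncated and kinase-bearing exons shaded. Ntrk2 holds 109 to 130 reads on each shared exon after the first, and drops to 18 and 16 on the first kinase exon.

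Most truncated Ntrk2 reads rested on a few models. Ntrk2-202, with 12 exons, had 59 reads in replicate 1 and 56 in replicate 2. An unannotated model of 13 exons had 37 and 32 reads. The libraries were matched by its splice sites, and the ends given are those of the model in replicate 1, not of each read. This model starts at the first exon of Ntrk2-201, chr13:58807697-58808013, and ends in the truncated tail at 58932447. The donor of that exon is annotated for the kinase-bearing Ntrk2-201 and for Ntrk2-205, a truncated transcript with another tail and no reads. Ntrk2-204, with an earlier first exon, had 10 and 9 reads. The kinase-bearing Ntrk2-201, with 18 exons and a model length of 8744 nt, had 6 and 5 reads, and an incomplete kinase model of 6 exons that starts at 58985802 had 4 and 7. Besides these and the 2 main single-exon models of the tail described next, 13 models held 2 to 5 reads each over both libraries, with 16 reads in replicate 1 and 26 in replicate 2, and 21 models held 1 read.

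Single-exon reads on the truncated tail were classed differently in the libraries. Replicate 1 had 44 reads on 1 model that spans the whole tail exon, chr13:58932023-58937027, classed as an incomplete splice match. Replicate 2 had 30 reads on a model at chr13:58933120-58937027, classed as genomic, and 3 on chr13:58932023-58932447. Known models carry the annotated ends and not those of each read, so the 3′ ends of the reads on Ntrk2-202 and Ntrk2-204 are not shown by the tables. The other annotated truncated tails of Ntrk2 took 5 reads in replicate 1 and 6 in replicate 2, none of them by splicing to an annotated truncated acceptor. Of these, 3 and 2 reads were 1 genomic model at chr13:58878749-58882462, which overlaps the terminal exon of Ntrk2-205 by 1 base.

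The models of truncated and kinase-bearing Ntrk2 reached unequally far toward the start codon. Among multi-exon reads, 112 of 116 truncated reads in replicate 1 had a model that holds the start codon (96.6%, 91.5 to 98.7%), against 8 of 21 kinase-bearing reads (38.1%, 20.8 to 59.1%). In replicate 2 these were 102 of 109 (93.6%, 87.3 to 96.9%) and 7 of 17 (41.2%, 21.6 to 64.0%). The Wilson intervals of these multi-exon reads do not overlap in either library, and no further test was made. The restriction falls unevenly, since a read within the truncated tail is single-exon. It left out 47 and 36 truncated reads in replicates 1 and 2, and 1 and 9 kinase-bearing ones. With single-exon reads included, 112 of 163 truncated and 8 of 22 kinase-bearing reads held the start codon in replicate 1. In replicate 2 these were 102 of 145 and 7 of 26. For Ntrk3, 5 of 19 truncated and 1 of 4 kinase-bearing multi-exon reads held the start codon in replicate 1, and 6 of 20 and 0 of 4 in replicate 2. Only counting models with the start codon, a choice made after the data were seen, the truncated share of Ntrk2 was 93.3% in replicate 1 and 93.6% in replicate 2. The median length of the multi-exon models was 6846 nt for truncated and 2883 nt for kinase-bearing Ntrk2 reads in both libraries, and its part in the truncated share was not tested.

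Both main first donors of Ntrk2 were joined mostly to truncated ends, with reads sorted by the donor of their first intron. The donor at chr13:58808940, that of the Ntrk2-202 first exon, took 62 of 138 multi-exon reads in replicate 1 (44.9%) and 56 of 127 in replicate 2 (44.1%). The donor at 58808013, annotated for Ntrk2-201 and the truncated Ntrk2-205, took 47 (34.1%) and 41 (32.3%). The donor of Ntrk2-204 and Ntrk2-207 took 10 in each library. Of the reads with the Ntrk2-201 donor, 40 were truncated and 6 kinase-bearing in replicate 1, and 34 and 6 in replicate 2. Of those with the Ntrk2-202 donor, 60 were truncated and 2 kinase-bearing in replicate 1, and 56 and 0 in replicate 2. The 2 kinase-bearing reads belong to an incomplete model of 17 exons that starts at 58808691, so they do not show the Ntrk2-202 first exon. The same donor also ends the exon chr13:58808385-58808940, the second of Ntrk2-201. Since known models carry the annotated ends, the truncated reads on Ntrk2-202 need not start in its first exon either. The comparison of these donors was made after the values were seen and has no test.

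Annotated Ntrk3 transcripts held few reads. Ntrk3-202, the truncated form with 14 exons, had 4 reads in replicate 1 and 6 in replicate 2. An incomplete model of 7 exons with the same tail, starting at 78460577, had 7 and 3. Models of 13, 3 and 2 exons with that tail had 1 and 3, 2 and 3, and 2 and 1 reads. A single-exon model over the whole terminal exon had 6 reads in replicate 1 and 0 in replicate 2, and 21 further models held 1 read each. The 135 nt exon of the truncated form was included in 17 reads and passed over in 3 in replicate 1, and in 19 and 3 in replicate 2. The reads that passed over it were the kinase-bearing ones, and a read into the Ntrk3-202 terminal exon that left it out was not seen.

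Kinase-bearing Ntrk3 can carry a short insert within the kinase region, which in rat TrkC is known to change signalling. An insert exon of 42 nt, chr7:78204103-78204144, was included in 2 reads and skipped in 1 in replicate 1, and included in 1 and skipped in 2 in replicate 2. Another insert of 75 nt, chr7:78229487-78229561, was skipped in 3 reads of replicate 1, and included in 1 and skipped in 2 of replicate 2. These counts are too low for a share. The 42 nt insert is printed with the adjoining bases of its neighbours, the insert in capitals.
Ntrk3 kinase insert: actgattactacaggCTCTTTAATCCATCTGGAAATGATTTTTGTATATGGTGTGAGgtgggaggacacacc

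Bdnf reads came from 4 of its annotated first exons. Bdnf lies at chr2:109674700-109727007 on the plus strand, with 11 annotated transcripts, of which 4 had reads. In the usual numbering of the mouse gene these start with exons I, II, IV and VI. Bdnf-205, from exon VI, had 9 of 26 multi-exon reads in replicate 1 (34.6%, 19.4 to 53.8%) and 7 of 24 in replicate 2 (29.2%, 14.9 to 49.2%). Bdnf-209, from exon IV, had 5 (19.2%, 8.51 to 37.9%) and 9 (37.5%, 21.2 to 57.3%). Bdnf-201, from exon I, had 7 (26.9%, 13.7 to 46.1%) and 6 (25.0%, with an upper bound of 44.9%). Bdnf-210, from exon II, had 4 (15.4%, 6.15 to 33.5%) and 1 (4.17%, 0.739 to 20.2%). The intervals of exons I, IV and VI overlap in both libraries, so no order among them can be read at this depth.

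**Figure D5:**
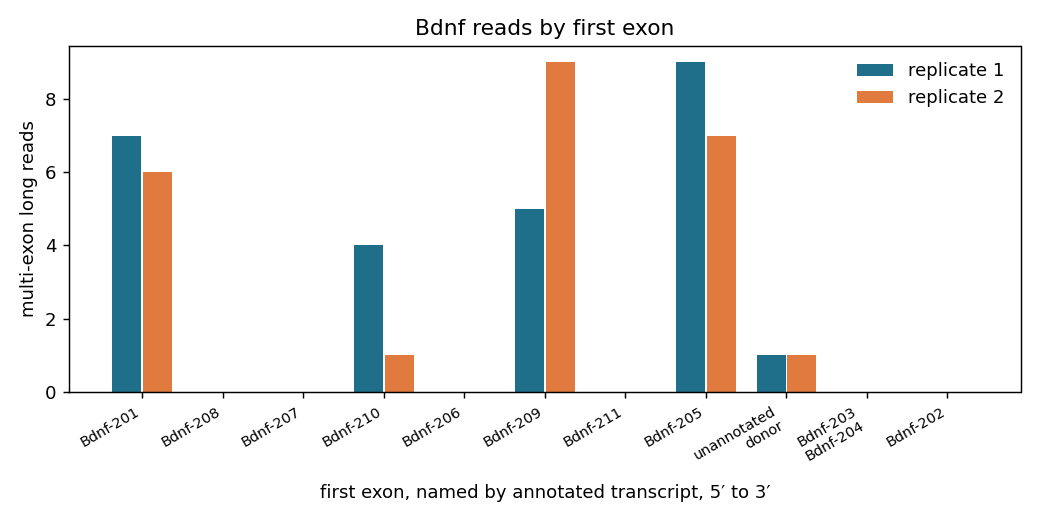
Multi-exon Bdnf reads by first exon, named by annotated transcript and ordered 5′ to 3′, with 1 bar per library. Bars stand at Bdnf-201, Bdnf-210, Bdnf-209, Bdnf-205 and 1 unannotated donor, and the tallest have 9 reads.

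Among the other Bdnf reads, 1 in each library began like Bdnf-205 and used an unannotated donor at 109694217. No read was seen from the other 7 annotated transcripts, which allows a share of up to 11.5% of multi-exon reads in replicate 1 and 12.5% in replicate 2. Single-exon reads within the shared exon numbered 3 and 4. Over all genes, 4 of 5335 differed between libraries in the share of their main first donor (0.075%; Fisher's exact test, Benjamini-Hochberg adjusted), 213 had an unadjusted p under 0.05, and no member was among the 4.

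The first exon of Bdnf-201 is the only one of the 4 that adds coding sequence. Its start codon, the capitals below, is the last 3 bases of exon I, at chr2:109675337-109675339, and it is read on in frame through the start of the shared exon to the start codon that the other forms use.
Bdnf exon I coding start: ATGttccaccaggtgagaagagtgatg

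Promoter IV of Bdnf is known in rodents for its response to neuronal activity through the factor CREB. Its upstream bases at chr2:109692186-109692435 (RefSeq promoter table, GRCm38.p6, plus strand) are shown since Bdnf-209 starts right after them, and hold the half-site TGACG once, read on the opposite strand as CGTCA and set in capitals.
Bdnf promoter IV: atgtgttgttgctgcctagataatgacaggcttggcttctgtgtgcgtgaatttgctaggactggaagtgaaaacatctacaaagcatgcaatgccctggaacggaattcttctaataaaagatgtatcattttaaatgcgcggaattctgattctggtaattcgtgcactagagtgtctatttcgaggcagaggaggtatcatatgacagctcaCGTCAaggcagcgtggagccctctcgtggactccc
These letters were not in the same stretch of the other 6 Bdnf windows of that table, searched on both strands, and 17.8% of all 32851 windows held them. The full palindrome TGACGTCA was in none of the 7 Bdnf windows and in 1.55% of all windows. No window of the table begins at exon II or exon VI, so those starts were not searched.

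Genes that make and act with these proteins were also measured. Of 9 processing genes, 6 were tested, and 2 had an unadjusted p under 0.05 (11.8% of all genes did). Of the 6, 1 was called lower in replicate 1 (1.26% of all genes were). It was Plat, which encodes tPA, the protease that cuts plasminogen to plasmin. Plat had 40.0 CPM in replicate 1 and 109 CPM in replicate 2 (log2 ratio -1.42, exact binomial test, adjusted p = 0.000226). The highest of the list were Cpe, a carboxypeptidase that trims and sorts prohormones, with 3475 and 3659 CPM, Scg2, a granin of secretory granules, with 434 and 334 CPM, and Pcsk2, a prohormone convertase, with 266 and 294 CPM. Plg, the plasminogen gene, had no read. The median log2 ratio of the 6 tested genes was -0.11, beside -0.03 over all genes tested.

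Of 27 adaptor and signalling genes, 22 were tested and 0 passed, with 2 at an unadjusted p under 0.05 (11.8% of all genes were), and their median log2 ratio was -0.04. The highest were Arhgdia with 587 CPM in replicate 1 and 562 CPM in replicate 2, Maged1 with 547 and 520 CPM, Bex3 with 379.5 and 337 CPM, and Gipc1 with 253 and 256 CPM. Of 14 genes known to respond to or act with BDNF signalling, all were tested, 5 had an unadjusted p under 0.05, 3 were called lower in replicate 1, against the same 1.26% of all genes, and the median log2 ratio was -0.26. Homer1, a postsynaptic scaffold, had 136 CPM in replicate 1 and 229.7 CPM in replicate 2 (log2 ratio -0.76, adjusted p = 0.00368). Crtc1, a CREB coactivator, had 185 and 280 CPM (log2 ratio -0.60, adjusted p = 0.0152), and Arc, an activity-regulated synaptic gene, had 299 and 409 CPM (log2 ratio -0.45, adjusted p = 0.0284, all by the exact binomial test). Arc lost its call under TMM scaling (adjusted p = 0.0540), DESeq2 size factors (0.101) and no filter on low counts (0.0522), and Crtc1 lost its call among multi-exon models (0.746) and with annotated transcripts only (0.930). Vgf, a secreted neuropeptide precursor, had 284 and 239 CPM, and Egr1, an immediate early transcription factor, 210 and 215 CPM, and neither passed.

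Marker genes of brain cell types were compared between the libraries. Bulk reads do not show which of these cells carry the receptors. Of 12 astrocyte genes all were detected and tested, and 3 had an unadjusted p under 0.05 (11.8% of all genes did). Only 1 was called, higher in replicate 1 (0.733% of all genes were). It was Gfap, an astrocyte filament gene named after its values were seen, with 285 CPM in replicate 1 and 153 CPM in replicate 2 (adjusted p = 2.05e-05, exact binomial test). The other 2 were lower in replicate 1 and not called: Gja1 with 425 and 512 CPM, and Slc1a2 with 271 and 342 CPM. The summed level of the 12 was 5008 CPM in replicate 1 and 5236 CPM in replicate 2, led by Aldoc with 2370 and 2509 CPM and Clu with 608 and 646 CPM. Of 7 tested oligodendrocyte genes Mbp was higher in replicate 1, with 1490 and 1269 CPM (adjusted p = 0.0259), and of 4 tested endothelial genes Cldn5 was, with 265 and 172 CPM (adjusted p = 0.0151). With annotated transcripts only, Mbp and Cldn5 lost their calls (adjusted p = 0.148 and 0.0791), with log2 ratios of 0.22 and 0.55, against 0.23 and 0.62 over all models. Cnp of oligodendrocytes had 254 and 262 CPM, and Slco1a4 of endothelial cells 43.9 and 36.8 CPM. Gad1 and Lamp5, of inhibitory neurons, had 443 and 360 CPM in replicate 1, and 387 and 281 CPM in replicate 2. Of the oligodendrocyte precursor genes, Olig1 had 101 and 75.1 CPM in replicates 1 and 2, and Olig2 46.5 and 30.9 CPM. Of the microglia genes, C1qa had 103.3 and 98.7 CPM. Genes listed for other regions were also detected: Calb2 and C1ql2, listed for the dentate gyrus, had 29.7 and 6.45 CPM in replicate 1, and 30.9 and 7.36 CPM in replicate 2. Of the same list, Prox1 had 3 reads in replicate 1 and 1 in replicate 2, and Dsp had none. Ppp1r1b and Penk, listed for the striatum, had 378 and 231 CPM in replicate 1, and 350.4 and 194 CPM in replicate 2. The rest of the striatal list was lower: Rgs9 had 33.6 and 23.6 CPM in replicates 1 and 2, and Drd1 31.0 and 17.7 CPM. Adora2a had 9 and 2 reads, and Drd2 3 and 5. Whether the samples held tissue of these regions was not tested. None of the tested excitatory neuron, inhibitory neuron, oligodendrocyte precursor, microglia, dentate and striatal genes passed. At an unadjusted p under 0.05 there were 2 excitatory and 2 inhibitory genes, of 7 tested in each list, beside 11.8% of all genes. The excitatory pair was opposed, with Slc17a7 higher and Camk2a lower in replicate 1. The inhibitory pair, Gad2 with 54.2 and 23.6 CPM in replicates 1 and 2 and Lamp5, was higher in replicate 1. Slc17a7 passed under TMM scaling (adjusted p = 0.0224) and DESeq2 size factors (0.00314), as did Scg2 (0.0440 and 0.0160). In bulk tissue fewer cells of a type and less RNA per cell cannot be told apart. The part of these markers in the receptor levels was not tested.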

How the data were processed

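Per the deposited notes, the authors deposited whole long-read counts per transcript model, from alignments to mm10 with GENCODE M21. TALON is named in the deposited annotation, and the sources used here give no aligner, version or filter. Counts were summed over the models of each annotated gene, and CPM has the sum over annotated genes as its total. A model missing from a library's table was taken as 0 reads. Receptor ends were read from the deposited exons. At 20 reads or more in total, a gene's reads were set against the library totals with an exact binomial test, two-sided, and shares were compared by Fisher's exact test. P-values were adjusted by the Benjamini-Hochberg method and called under 0.05. The log2 ratio has replicate 1 on top and uses CPM + 1. With 1 group, edgeR 4.0.16 and DESeq2 1.42.0 gave scaling factors only. On simulated data 39.0% of 200 genes changed 2-fold were called, and 89.5% of 200 changed 4-fold. These were Poisson counts around pooled means, with no spread between libraries beyond counting. In the real libraries 11.8% of genes had an unadjusted p under 0.05, so the simulated rates need not hold for them. Intervals are 95% and cover counting error only. The members and gene lists were chosen with earlier results of these data known. Named were models with at least 2 reads, all ligand and receptor genes, the 4 highest and any called gene of the other pathway lists, and the 2 highest of each cell type list, except a few genes that are not reported here. Models with 2 to 5 reads are mostly given as a summary.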

Additional observations from a re-analysis of the deposited data

Results flagged for a closer look

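Reads of unannotated loci on the strand opposite the receptor genes were counted in no comparison and lie above the limit of 3 counts. Opposite Ntrk2 there were 16 such reads in replicate 1 and 33 in replicate 2, of which 4 and 10 overlapped an annotated Ntrk2 exon. Opposite Ntrk3 there were 18 in replicate 1 and 44 in replicate 2, of which 4 and 5 overlapped an exon. Bdnf had 1 in each library. Over the whole libraries the share of antisense loci was 8.87% in replicate 1 and 16.9% in replicate 2, and its part in these counts was not tested. The annotated minus-strand gene 4930415C11Rik inside Ntrk2 had 3 reads in replicate 1 and 18 in replicate 2.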

How the results depend on the processing

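Calls held except as given here and beside the genes above, and the causes were not tested. Uncalled log2 ratios near 0 changed sign for Cpe, Cnp, Calb2 and Sorl1 under DESeq2 size factors, for Egr1 and Gipc1 under these and TMM, and for Gipc1 with annotated transcripts only. The count of genes that differ between the libraries was 182 of 9143 tested. It was 55 of 6508 with annotated transcripts only and 78 of 7933 with multi-exon models only. For the last acceptor it was 1, against 3 with 10 reads or more, 3 with 50 reads or more and 0 with annotated transcripts only, and for the first donor 4, against 1 with annotated transcripts only. The truncated share of Ntrk2, 86.5%, was 91.8% with annotated transcripts only, 93.8% without incomplete splice matches and genomic models, and, in settings chosen after seeing the data, 90.6% for reads spliced out of the last shared exon and 93.5% for models with the start codon. Leaving out a replicate gave 84.8% to 88.1%. That of Ntrk3, 74.5%, was 90.0% with annotated transcripts only, 90.7% by the last acceptor alone and 91.7% for models with the start codon, and 65.6% to 83.3% without a replicate. Ntrk2 minus Ntrk3 was 11.97 points as a mean and 4.77 to 19.2 points without a replicate, under an unadjusted 0.05 without replicate 1 (Fisher's exact p = 0.0217, adjusted 0.0869). By the last acceptor alone it was -5.07 points (exact p = 0.740). Mean levels relative to all mouse reads were 33.8 CPM for Bdnf and 215 CPM for Ntrk2. With annotated transcripts only they were 47.7 CPM for Bdnf, 145 CPM for Ntrk2 and 11.1 CPM for Ntrk3, and with multi-exon models only 210 CPM for Ntrk2 and 37.4 CPM for Ntrk3. Leaving out a replicate gave 37.4 to 41.2 CPM for Bdnf, 242.7 to 256 CPM for Ntrk2 and 40.0 to 50.1 CPM for Ntrk3. Depth limits Ntrk3 and Bdnf most, with 28 to 34 reads in each library. No paired analysis was possible because the study has 1 group.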
